A study of Mus musculus with 7 samples.

Results

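The AP-2 transcription factor loci were described from ATAC-seq peak lists of 7 mouse libraries. ATAC-seq uses a transposase that cuts DNA where it is not packed by nucleosomes, so a peak marks a stretch of accessible chromatin. The family has 5 genes, Tfap2a, Tfap2b, Tfap2c, Tfap2d and Tfap2e, and every peak inside or within 100 kb of their gene bodies was taken. Joined wherever peaks of different lists overlapped, these peaks formed 81 regions, out of 128642 on the autosomes. The lists held 61 and 38 of these peaks in ectoderm replicates 1 and 2, 18 and 15 in the Sox2-positive replicates, 24 in the incisor, 34 in the lower molar and 32 in the upper molar.

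The libraries fall into 5 groups. At embryonic day 11.5, ectoderm was peeled off the mesenchyme of the first pharyngeal arches, from which the jaws form (2 libraries). Sox2-positive cells were sorted at postnatal day 2 from the labial cervical loop, the epithelial end of the growing lower incisor, out of Sox2-GFP mice, in which the endogenous Sox2 promoter drives the reporter (2 libraries). Their label is DESC, for dental epithelial stem cell. Whole lower incisor, whole lower first molar and whole upper first molar of postnatal day 2 gave 1 library each. The labels give no strain, mutation or treatment for any group, and nothing in them says whether replicates came from separate litters.

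AP-2 proteins bind GC-rich DNA as dimers and act in the ectoderm and neural crest of the embryonic head. Tfap2a and Tfap2b are needed for the face to form, and Tfap2c is known for its roles in trophoblast, germ cells and surface epithelium. Tfap2d and Tfap2e are better known from the nervous system, Tfap2d from the midbrain and Tfap2e from the olfactory bulb.

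RefSeq (GRCm38.p6) gave sequence around 7 transcription starts of 4 of the 5 genes, each running from 250 bases before to 50 bases after the start. One window of each of these 4 genes is printed, to show which start sequence was open in which tissue. They read 5′ to 3′ along the gene, and capitals mark the bases that lay under a peak in every library with a peak in that window.
Tfap2a downstream start, chr13:40733746-40734045, minus strand: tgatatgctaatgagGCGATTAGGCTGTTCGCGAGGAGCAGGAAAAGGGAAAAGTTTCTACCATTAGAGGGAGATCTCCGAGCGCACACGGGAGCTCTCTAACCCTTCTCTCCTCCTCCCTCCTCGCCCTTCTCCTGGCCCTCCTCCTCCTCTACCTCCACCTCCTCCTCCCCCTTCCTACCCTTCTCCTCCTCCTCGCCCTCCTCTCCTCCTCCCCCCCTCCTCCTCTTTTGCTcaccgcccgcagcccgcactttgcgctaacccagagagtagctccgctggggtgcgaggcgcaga
Tfap2e start, chr4:126736220-126736519, minus strand: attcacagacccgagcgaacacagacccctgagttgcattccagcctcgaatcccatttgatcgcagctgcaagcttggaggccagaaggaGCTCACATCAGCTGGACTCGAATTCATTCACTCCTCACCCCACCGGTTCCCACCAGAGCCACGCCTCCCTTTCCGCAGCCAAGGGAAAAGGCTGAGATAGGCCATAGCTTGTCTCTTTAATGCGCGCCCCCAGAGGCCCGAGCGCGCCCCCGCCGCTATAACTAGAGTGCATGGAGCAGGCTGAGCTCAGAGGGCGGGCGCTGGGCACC
Tfap2d most downstream start, chr1:19103883-19104182, plus strand: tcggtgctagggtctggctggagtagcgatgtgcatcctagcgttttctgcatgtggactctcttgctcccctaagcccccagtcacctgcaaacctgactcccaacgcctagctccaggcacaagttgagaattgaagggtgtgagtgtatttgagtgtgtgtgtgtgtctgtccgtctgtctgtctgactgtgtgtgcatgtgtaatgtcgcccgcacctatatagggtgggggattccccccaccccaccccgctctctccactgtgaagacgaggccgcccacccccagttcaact
Tfap2b start, chr1:19211804-19212103, plus strand: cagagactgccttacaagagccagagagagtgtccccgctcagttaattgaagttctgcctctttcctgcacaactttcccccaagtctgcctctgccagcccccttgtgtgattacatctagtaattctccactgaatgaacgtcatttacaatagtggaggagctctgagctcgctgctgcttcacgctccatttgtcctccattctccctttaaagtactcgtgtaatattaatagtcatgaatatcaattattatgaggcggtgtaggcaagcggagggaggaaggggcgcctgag
The Tfap2a window had a peak in 7 libraries, and 220 of its bases lay under all of them. The Tfap2e window had a peak in 4 libraries, both ectoderm and both molars, with 209 bases in common. The Tfap2d and Tfap2b windows had none, and the ectoderm peak at Tfap2d began just past the last base printed. The palindromic AP-2 motif GCCNNNGGC, which reads the same on both strands, had no match in any of the 7 windows and one or more in 20.2% of 20085 windows of the same length. The GC box GGGCGG, sought on both strands, had a match in 4 of the 7 windows and in 47% of all windows. It lay 13 bases before the printed Tfap2a start, 32 bases past the Tfap2e start and 29 bases past the Tfap2d start. GC content was 61% at this Tfap2a start, 60.3% at Tfap2e, 56.7% at Tfap2d and 48.3% at Tfap2b, against a median of 57% over all windows.

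List length has to be kept in view, because the lists ran from 38326 to 80850 autosomal peaks and read depth was unknown. Each result is therefore also given for the 38000 autosomal peaks of each library with the smallest p-values. That left 38 AP-2 regions of 77136. The p-value that closed these lists differed between libraries, with −log10 p of 4.79 and 3.82 in ectoderm, 3.33 and 2.94 in the sorted cells and 4.01 to 4.28 in whole teeth. With 2 libraries against 2, no exact two-sided permutation test can go below p = 0.33, and whole teeth had no replicates, so counts are given without a test. In tissue libraries, a site open in few cells and a site weakly open in many cells cannot be told apart.

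Start-site peaks of marker genes were checked against the labels. Of 6 epithelial marker genes, 5 had one in each ectoderm, Sox2-positive and molar library and 4 in the incisor. Trp63, for which only the gene ends could stand in for a start, had none in any library. Gene ends also stood in for the start at Cdh1, Grhl2, Col1a1, Pecam1, Cdh5 and Spi1. Of 6 mesenchyme marker genes, 4 had one in each ectoderm library and all 6 in each Sox2-positive and whole-tooth library. The 4 were not the same genes, as Prrx1 had none in ectoderm replicate 1 and Col1a1 none in replicate 2. Pdgfra, a mesenchyme gene, had none in ectoderm. Of 3 endothelial genes at most 1 had one in any library, and of 3 blood genes 2 had one in all 7. Sox2 itself had a start-site peak in all 7 libraries. Regions within 100 kb of the markers also moved between the tissues compared here. Among the 6 mesenchyme genes, 4 had more regions open in Sox2-positive cells only than in ectoderm only and 1 had fewer, and with 38000 peaks per library all 6 had more. Among the 6 epithelial genes, 6 had more ectoderm-only regions, and 4 with 38000 peaks per library, with 0 the other way. Over all genes, 8.89% had more Sox2-positive-only and 70.1% more ectoderm-only regions, and 25.4% and 41.7% with 38000 peaks per library. The part of other cell types in the AP-2 results was not tested.

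Tfap2a and the paired loci Tfap2b and Tfap2d had more open sites in embryonic ectoderm than in sorted Sox2-positive cells. Within 100 kb of Tfap2c and Tfap2e the counts of the 2 tissues met. Around Tfap2a the ectoderm replicates had 22 and 17 peaks, the Sox2-positive replicates 5 each, incisor 6, lower molar 10 and upper molar 7. Both ectoderm counts lay above all 5 postnatal counts. Around Tfap2b the ectoderm replicates had 8 and 6 peaks, each molar had 2, and sorted cells and incisor had none. The Tfap2d window, which holds every Tfap2b region, added 2 peaks in each ectoderm replicate. Around Tfap2c ectoderm had 18 and 6 peaks, Sox2-positive cells 6 and 6, incisor 8, lower molar 7 and upper molar 8, so only ectoderm replicate 1 stood apart. Within 50 kb of Tfap2c, however, ectoderm had 11 and 4 peaks against 3 in each Sox2-positive library, and both ectoderm counts were then higher. Around Tfap2e ectoderm had 11 and 7, Sox2-positive cells 7 and 4, incisor 10 and the molars, which were highest, 15 each. Both ectoderm counts exceeded both Sox2-positive counts at 3 of the 5 genes, against a background of 48.5% of 20665 autosomal protein-coding genes, and the reverse at 0 of 5, against 1.92%. Of these 3 genes, Tfap2b and Tfap2d share most of their peaks and are not separate evidence. Peaks in both ectoderm libraries and none in Sox2-positive cells were found at 2 of the 5, Tfap2b and Tfap2d, against 3.25% of genes (2.02% with 38000 peaks per library). The narrower pattern of these 2, with peaks also in both molars and none in incisor, held for 0.919% of genes (0.363%).

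**Figure D1:**
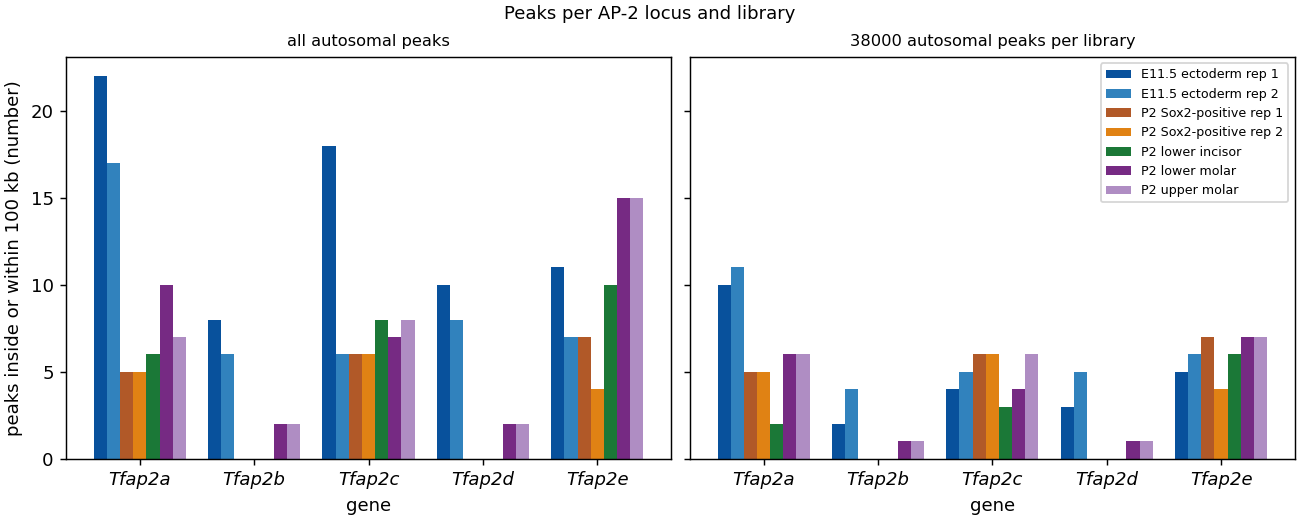
Number of peaks inside or within 100 kb of each AP-2 gene (bars, from 0) in each of the 7 libraries, with all autosomal peaks on the left and 38000 autosomal peaks per library on the right; Tfap2b and Tfap2d share most of their window. Sox2-positive cells and incisor had 0 peaks at Tfap2b and Tfap2d, and at Tfap2a the ectoderm bars stay highest in both panels (22 and 17, then 10 and 11).

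With 38000 peaks per library the same 3 genes, of which Tfap2b and Tfap2d share most of their peaks, kept more peaks in both ectoderm libraries. This held for 22.5% of all genes. Ectoderm then had 10 and 11 peaks at Tfap2a, Sox2-positive cells 5 and 5, incisor 2 and the molars 6 each. Tfap2b had 2 and 4 in ectoderm, 1 in each molar and 0 elsewhere. Tfap2c turned the other way by number of peaks, with 4 and 5 in ectoderm and 6 in each Sox2-positive library, a direction seen at 20.7% of genes. Each Sox2-positive list, however, had 2 peaks in chr2:172548692-172551875, where each ectoderm list had 1. The length of DNA under peaks around Tfap2c stayed higher in ectoderm, at 5.14 and 6.625 kb against 3.908 and 2.909 kb in Sox2-positive cells. At Tfap2e ectoderm had 5 and 6, the sorted cells 7 and 4, incisor 6 and the molars 7 each, so the molars no longer stood above the rest. The length of DNA under peaks around Tfap2a was 9.85 and 11.7 kb in ectoderm against 3.96 and 3.34 kb in Sox2-positive cells in these lists. The median gene had 6 peaks in every library.

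Of the 81 regions, 20 had a peak in both ectoderm libraries and in neither Sox2-positive library, or 24.7% against 17.9% of all regions. The reverse held for 1 region, or 1.23% against 5.9% of all. Of the 20 regions, 10 belonged to Tfap2a, 5 to Tfap2b, 2 to Tfap2d, 2 to Tfap2e and 1 to Tfap2c, each region being counted for the nearer member. Without ectoderm replicate 2, where the longest list stood for ectoderm alone, the 20 became 46. With 38000 peaks per library the counts were 9 and 3 of 38, or 23.7% and 7.89%, against 15.7% and 12% of all regions. A single library held 34 of the 81 regions (42%, against 31.3% of all regions), and 26 of these were in 1 of the ectoderm libraries. Most of the 26 were in ectoderm replicate 1, which had the longest list (80850 autosomal peaks). The matching share over all regions was not counted.

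**Figure D2:**
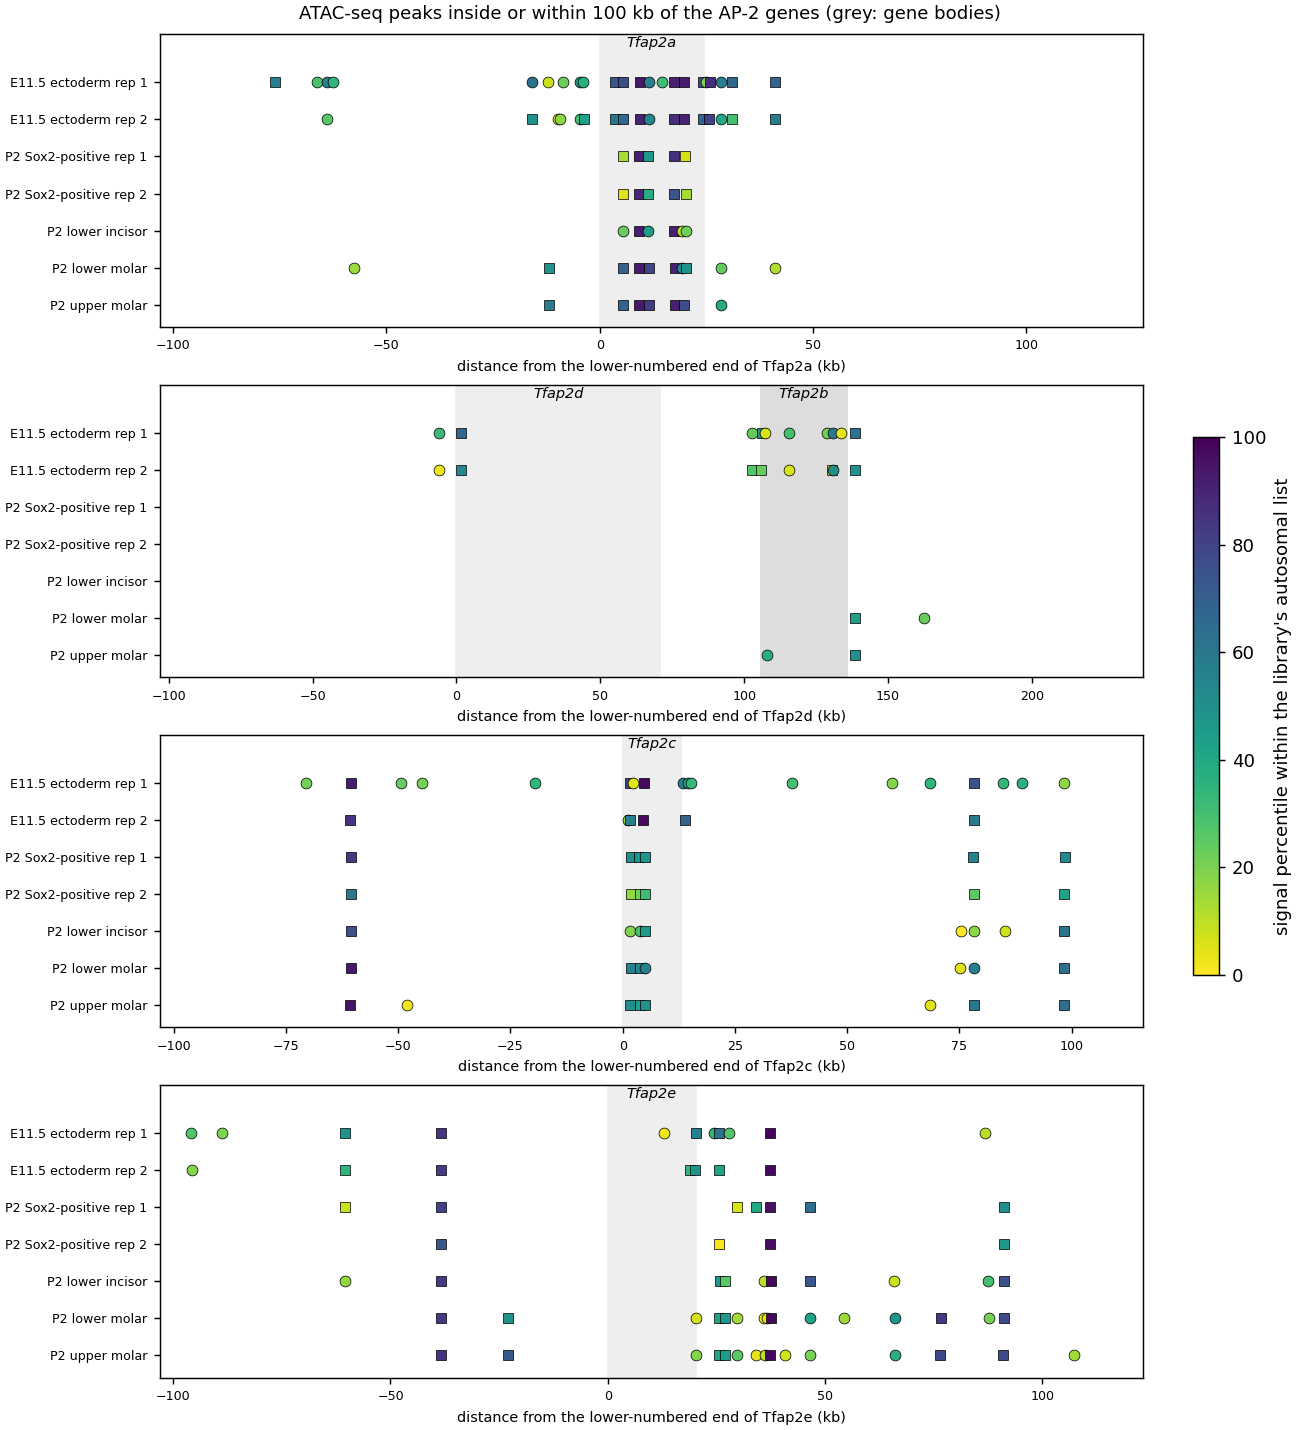
Position of every peak (1 symbol each, at its centre) along 4 windows that hold the 5 genes, by library, in kb from the lower-numbered end of the gene; grey marks gene bodies, colour the peak's signal percentile in its own autosomal list, squares peaks among the 38000 with the smallest p-values and circles the others. The 5 peaks of each Sox2-positive library at Tfap2a lie inside the gene, and the rows of Sox2-positive cells and incisor are empty at Tfap2d and Tfap2b.

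Tfap2a, the founding member of the family, spans chr13:40713802-40738238 on the minus strand, and RefSeq has no other protein-coding gene within 100 kb of it, though the lncRNA Gm26688 overlaps its upstream end. It had 24 regions, of which 8 touched the gene body. In Sox2-positive cells and in incisor, all peaks of the window fell on the same 5 regions, which had a peak in every library and lay inside the gene. Highest in signal in every list was chr13:40722376-40723901, 9.89 kb from the nearest start. Another, chr13:40730536-40732062, second by median percentile over the lists, lay 1.73 kb downstream of the nearest start. The remaining 3 were chr13:40718997-40719728, chr13:40724902-40725914, which was named after its values were seen, and the start region, chr13:40732638-40734607. Exon boundaries were not used here, so these are given as inside the gene without saying exon or intron.

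Of the 10 AP-2 regions that could be ranked in both tissues, the start region of Tfap2a differed most between ectoderm and Sox2-positive cells, as the percentiles given further on show. It covers the downstream of 2 RefSeq starts, whose sequence is printed above. Its deposited peak signal, an area on the caller's significance scale that can be compared only within a list, was 3196 and 3156 in ectoderm, 222 and 256 in the sorted cells, 310 in incisor, 575 in lower molar and 1350 in upper molar. Where a list split the region into several peaks, the highest is given. At chr13:40722376-40723901 the signal was 3449 and 3208 in ectoderm, 2125 and 2081 in the sorted cells, 2718 in incisor, 2713 in lower molar and 2949 in upper molar. Within each list, the start region thus reached 92.7% and 98.4% of that inner region in ectoderm. It reached 10.5% and 12.3% in Sox2-positive cells, 11.4% in incisor, 21.2% in lower molar and 45.8% in upper molar. Both ectoderm shares lay above all postnatal ones, and the upper molar stood between the ectoderm and the rest. Against the second inner region the shares were 106% and 117% in ectoderm, 13.6% and 22.2% in the sorted cells, 12.5% in incisor, 24.7% in lower molar and 53.5% in upper molar, in much the same order.

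**Figure D3:**
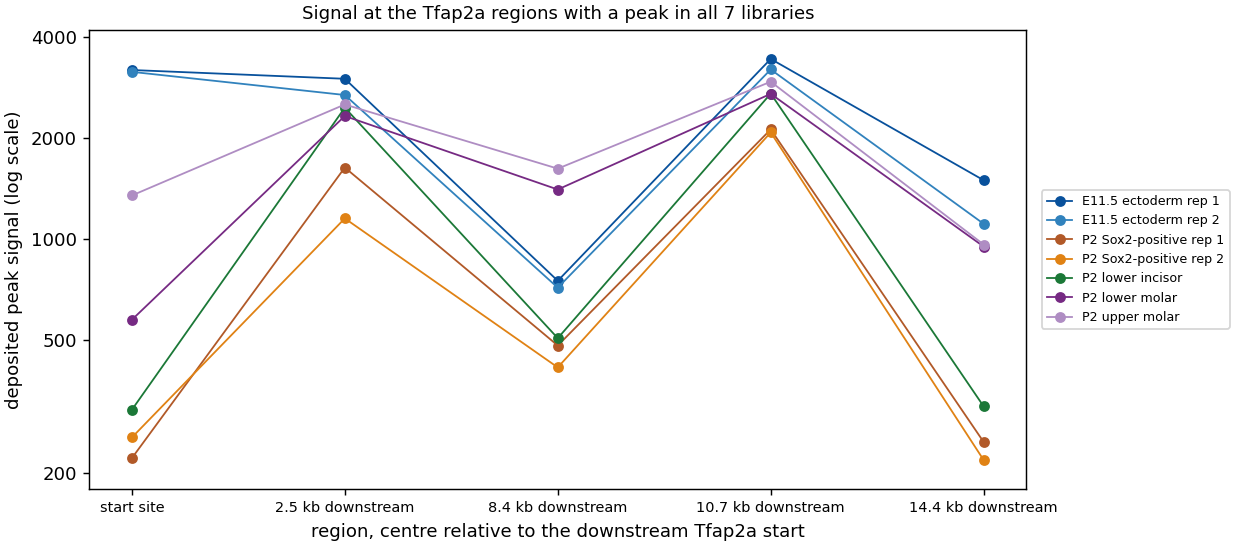
Deposited peak signal (log scale) at the 5 Tfap2a regions with a peak in all 7 libraries, ordered from the downstream start site into the gene; each line joins the values of 1 library, and only its shape, not its height, can be compared between libraries. The line starts high in ectoderm (3196 and 3156) and low in Sox2-positive cells (222 and 256), while all libraries are high at chr13:40722376-40723901 (2081 to 3449).

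The other inner regions did not follow 1 order. The signal of chr13:40718997-40719728 was 1499 and 1111 in ectoderm, 248 and 219 in the sorted cells, 317 in incisor, 950 in lower molar and 963 in upper molar. Ranked among the 38000 peaks of its own list, it stood at percentile 43.9 in lower molar and 43.8 in upper molar, and the incisor peak was not among them. The signal of chr13:40724902-40725914 was 751 and 716 in ectoderm, 481 and 414 in the sorted cells, 506 in incisor, 1406 in lower molar and 1623 in upper molar. It exceeded chr13:40718997-40719728 in all 5 postnatal lists and stayed below it in both ectoderm lists. It counted as open only in Sox2-positive cells and molars at 38000 peaks per library, because the p-values of its ectoderm and incisor peaks fell outside those lists.

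At Tfap2a, 8 regions had a peak in both ectoderm libraries and in no postnatal list, and another 7 had one in a single ectoderm library only. The shares of these patterns over all regions were not counted. Of the 8, the first by signal was chr13:40738640-40740234, just upstream of the gene body, with 2366 and 2027 in the ectoderm replicates. The second was chr13:40737582-40738541, across the upstream end of the gene, with 1403 and 1180. The third was chr13:40716932-40717732 inside the gene, with 1326 and 908. All 3 were among the 38000 peaks of both ectoderm lists. The other 5 had signals of 344 to 1005. Another 2 regions of ectoderm were also open in molars and not in Sox2-positive cells or incisor: chr13:40754783-40755213 (ectoderm 1082 and 815, lower molar 252) and chr13:40741911-40742539 (ectoderm 770 and 482, lower molar 320, upper molar 449).

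Tfap2d and Tfap2b lie next to each other on the plus strand of chromosome 1, at chr1:19103022-19173948 and chr1:19208908-19238845, with 35.0 kb between the gene bodies. Their windows of 100 kb shared 11 regions, which are all of those in the Tfap2b window and 11 of the 13 in the Tfap2d window. The counts for the 2 genes are therefore not separate evidence. No library had a peak across the 101 kb that separate the region at the Tfap2d start from the first region before Tfap2b, a stretch that holds most of the Tfap2d gene. The only region inside the Tfap2d gene was chr1:19104184-19104950, with its summit 0.646 kb past the most downstream start and signals of 1052 and 720 in the ectoderm replicates. It was found in no postnatal library and stayed among the 38000 peaks of both ectoderm lists. It overlaps the end of the lncRNA Gm15825 as well as Tfap2d. A weaker ectoderm region upstream of Tfap2d, chr1:19096923-19097207, also named after its values were seen, had 410 and 211.

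Tfap2b had 11 regions, 8 touching its gene body, and none in all 7 libraries. In Sox2-positive cells the nearest peak to its RefSeq start was 258 kb away in replicate 1 and 858 kb in replicate 2, and in incisor 258 kb. The ectoderm-only region with the highest signal was chr1:19233773-19234342, inside the gene, with 827 and 640, although its p-values left it out of both lists of 38000. The upstream end of the gene body lay under chr1:19208895-19209294, with 596 and 318 in ectoderm and no postnatal peak. Further upstream, chr1:19205742-19206001 had 338 and 350. The printed RefSeq start had no peak summit within 1 kb in any library, the closest being 1.15 kb away in upper molar and 1.64 kb in ectoderm replicate 1.

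The molars shared a single Tfap2b site with ectoderm. It was chr1:19241337-19241716, past the downstream end of the gene, with 888 and 611 in ectoderm, 492 in lower molar and 566 in upper molar, and no peak in Sox2-positive cells or incisor. It was also the only Tfap2b region among the 38000 peaks of both ectoderm and both molar lists. The other molar peaks were in 1 library each: chr1:19210667-19211166 in upper molar (433) and chr1:19265325-19265676 in lower molar (314).

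Tfap2c spans chr2:172545678-172558622, and the table used gives no start window for it, so both gene ends stood in. It had 19 regions, 4 of them in all 7 libraries, and 9 only in 1 ectoderm library. The share of the latter pattern over all regions was not counted. The broad region chr2:172548692-172551875, inside the gene, was named after its values were seen. Of the 10 AP-2 regions ranked in both ectoderm and Sox2-positive cells, it had the second-largest difference in signal percentile, after the Tfap2a start region. Each ectoderm list had a single peak there, covering 2787 and 2921 bases, with signals of 4565 and 4881. Each postnatal list had 2 separate peaks, which together covered 914 to 1182 bases, and the higher signal was 502 and 361 in Sox2-positive cells, 526 in incisor, 666 in lower molar and 577 in upper molar. All 5 postnatal lists thus covered less of the region than either ectoderm list.

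Beside this region, chr2:172546598-172548058 had its highest peak at 1571 and 825 in ectoderm, 522 and 270 in the sorted cells, 291 in incisor, 666 in lower molar and 584 in upper molar. The region past the higher-numbered end of the gene, chr2:172558751-172560391, had 768 and 1236 in ectoderm and no postnatal peak, and at 38000 peaks only ectoderm replicate 2 kept it. The flanks of the gene also held sites shared by all tissues. The first, chr2:172484443-172485465, had 2976 and 2419 in ectoderm, 1479 and 737 in the sorted cells, 1194 in incisor, 3018 in lower molar and 3266 in upper molar, with the gene Fam209 nearer than Tfap2c. At chr2:172623477-172624249 the signals were 1383 and 861 in ectoderm, 581 and 319 in the sorted cells, 283 in incisor, 673 in lower molar and 746 in upper molar. A site 85.1 kb past the gene, chr2:172643769-172644420, was named after its values were seen: it had a peak in all 5 postnatal libraries (455 to 855), one of 288 in ectoderm replicate 1 and none in replicate 2.

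Tfap2e spans chr4:126716003-126736269 on the minus strand in a gene-dense stretch. Of its 25 regions only 3 had Tfap2e as the nearest gene, the rest being nearer to Psmb2, Ncdn, AU040320 or 5730409E04Rik. Its start region, chr4:126735766-126736483, had 742 and 606 in ectoderm, 229 in lower molar and 291 in upper molar, and no peak in Sox2-positive cells or incisor. At 38000 peaks per library only the ectoderm peaks remained. The other 2 regions of the gene body were in 1 ectoderm library each. The regions with the highest signals in the window lay over other genes: chr4:126752301-126754549 over the overlapping ends of Ncdn and AU040320 (2755 to 5209 in the 7 libraries) and chr4:126677148-126678301 at Psmb2 (1067 to 2193). The only region of the family found in both Sox2-positive and neither ectoderm library, chr4:126806787-126807430, lay inside AU040320, with 522 and 510 in Sox2-positive cells and 1218 to 1342 in whole teeth. Whole teeth alone had 9 regions in this window, a pattern whose share over all regions was not counted. Those with the highest signals were open in both molars and not in incisor: chr4:126792136-126793045 inside AU040320 (1690 in lower molar and 1382 in upper molar) and chr4:126692767-126693404 inside Psmb2 (552 and 1145).

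Signal ranks were set on a common scale as the percentile of a peak's signal among the 38000 of its own library. A region present in both ectoderm and both Sox2-positive lists was called higher in ectoderm when both ectoderm percentiles were at least 20 points above both Sox2-positive ones, a rule chosen after the data were seen. Of 10 AP-2 regions, 3 were higher in ectoderm and 0 lower, against 7.15% and 3.97% of 16740 such regions. The Tfap2a start region stood at percentiles 84.6 and 87.6 in ectoderm and 3.54 and 12.9 in Sox2-positive cells (means 86.1 ± 2.12 and 8.22 ± 6.62, SD, n = 2 each). The broad Tfap2c region stood at 94.6 and 96.3 against 43.4 and 30.7 (means 95.4 ± 1.20 and 37.0 ± 8.98, SD, n = 2 each). The third, chr13:40718997-40719728, stood at 51.3 and 55.8 against 8.14 and 4.67. The rule picks regions whose replicates of the 2 tissues lie apart, so the separation at these 3 is not separate support. The Tfap2a region chr13:40722376-40723901, which the rule did not pick, stood at 87.1 and 88.0 in ectoderm and 90.9 and 89.3 in Sox2-positive cells. Without Sox2-positive replicate 1 the count rose from 3 to 6, as replicate 2 was lower at all 3 other Tfap2c regions.

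**Figure D4:**
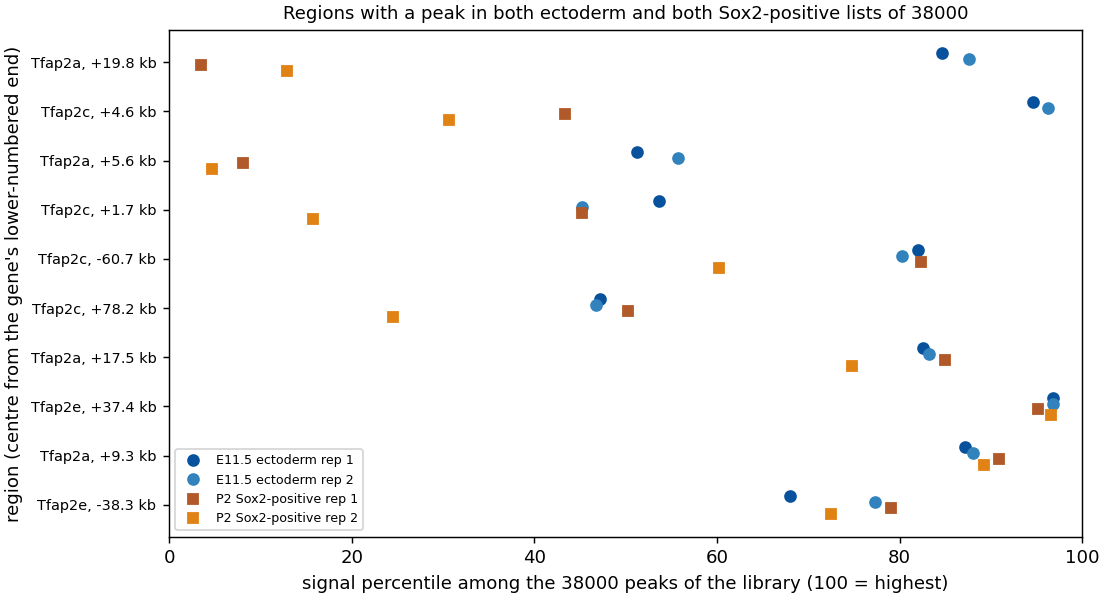
Signal percentile among 38000 peaks per library (x axis, 100 is the highest signal) of the 10 AP-2 regions found in both ectoderm (circles) and both Sox2-positive (squares) lists, 1 symbol per library, ordered by the difference of the group means. The first 3 regions, the Tfap2a start, the broad Tfap2c region and 1 inner Tfap2a region, have all circles at least 20 points above all squares; in the other 7 the nearest circle and square are closer.

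In the full lists, every AP-2 region found in both sorted libraries was also open in the organ they came from, as were nearly all such regions elsewhere. Both Sox2-positive replicates had a peak at 13 regions, and whole incisor had one at all 13, as at 95.6% of the 28421 such regions over all autosomes. No AP-2 region was open in both Sox2-positive libraries and missing in incisor (0.97% of all regions were). At 38000 peaks per library incisor had a peak at 8 of the 13 AP-2 regions found in both Sox2-positive lists. That was 61.5%, against 86.7% of such regions over all autosomes. Those missing in incisor were then 5 of 38 regions, or 13.2% against 4.69% of all. Of these, 3 were at Tfap2a, the start region among them, and 2 at Tfap2c. All 5 had an incisor peak in the full list. Incisor had 6 regions without a Sox2-positive peak (7.41%, against 15.7% of all), 4 around Tfap2e and 2 around Tfap2c, and none at Tfap2a, Tfap2b or Tfap2d. With 38000 peaks per library 1 of 38 remained (2.63%, against 8.12%).

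The molars were compared with the incisor. Regions with a peak in both molars and not in incisor numbered 7, or 8.64% against 11.9% of all regions, and were 8 of 38 at 38000 peaks per library, or 21.1% against 10.8%. The reverse was seen at 2 regions (2.47%, against 9.24%), and at 1 of 38 (2.63%, against 12.2%). The 7 were 2 at Tfap2a, 1 at Tfap2b and 4 around Tfap2e, the Tfap2e start among them. The Tfap2a region chr13:40701687-40702075, named after its values were seen, had 551 in lower molar, 724 in upper molar and 237 in ectoderm replicate 1. With 1 library per tooth these differences have no replicate check.

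A start-site peak, with its summit within 1 kb of a RefSeq start, was found at Tfap2a in 7 libraries, at Tfap2e in both ectoderm and both molar libraries, at Tfap2d in both ectoderm libraries and at Tfap2b in none. No RefSeq start was given for Tfap2c in the set used, and either gene end stood in. Both ectoderm libraries had a summit within 1 kb of its higher-numbered end (0.554 and 0.551 kb). All 7 had one within 2.5 kb of its lower-numbered end and none within 1 kb. With 38000 peaks per library the start-site peak was lost in incisor at Tfap2a and in both molars at Tfap2e. The peak at the higher-numbered end of Tfap2c was lost in ectoderm replicate 1. Over 16457 genes with a RefSeq start in that set, 57.9% to 66.3% had a start-site peak, depending on the library. Regions open in all 7 libraries made up 11 of the 81 (13.6%, against 14.2% of all regions) and 6 of 38 at 38000 peaks per library (15.8%, against 19.2%), and Tfap2b and Tfap2d had none.

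Other genes of the AP-2 pathway were taken from a list. Of 10 epithelial genes that act with or below AP-2 factors, 9 had more ectoderm-only than Sox2-positive-only regions within 100 kb and 0 had fewer, against 70.1% and 8.89% of all genes. With 38000 peaks per library 7 had more and 1 had fewer, against 41.7% and 25.4%. Krt5, Krt14, Cdh1, Trp63 and Grhl2 of this list were also among the epithelial markers above, so these results are not separate evidence. Trp63, the master regulator of stratified epithelium, had 12 ectoderm-only and 1 Sox2-positive-only region, and Grhl3, which acts in barrier formation, had 14 and 0. Gata3 was the one gene of the list with a start-site peak in both ectoderm libraries and in no postnatal one. Kctd15 is an AP-2 inhibitor, and Cited2 and Cited4 are coactivators. Of 5 inhibitors and cofactors, these and Wwox had a start-site peak in all 7 libraries, with either gene end standing in at Wwox. In this group 4 genes had more ectoderm-only regions and 1 fewer, and 1 and 2 at 38000 peaks per library. Of 8 neural crest and mesenchyme genes 6 had more and 1 fewer, and 3 and 3 at 38000 peaks per library. Msx1 was also among the mesenchyme markers above.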

How the data were processed

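Groups and replicate numbers came from the sample titles. Per the labels' protocols the libraries were made with Omni-ATAC. The submitters' processing notes name FastQC, Trimmomatic, Bowtie2, deepTools, Genrich and the build mm10, and give no versions or options. The authors deposited 1 narrowPeak list per library. Column 7 is the peak signal and column 8 the −log10 of the p-value, both as deposited by the authors with no scaling between libraries recorded. The lowest signal was 200 in every list, and read depth is unknown.

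Autosomal peaks were used as deposited. Peaks of the 7 lists that shared at least 1 bp were joined into regions, and a library had a region if it had a peak in it. Peak positions are counted from 1. Gene bodies came from RefSeq (GRCm38.p6, the same assembly as mm10) and starts from its promoter table, and where that has no entry either gene end was used. Lists of 38000 were taken by column 8, ties broken by column 7. At the edge 108 to 2077 peaks were tied. The outermost region counted lay 95.3 kb outside Tfap2e and was open in ectoderm replicates 1 and 2. The first left out lay 102 kb outside this gene.

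The members, the gene lists and the tests were chosen with earlier results of these data known. The named regions are the start region of each gene and, per pattern of libraries, up to 3 regions with the highest median signal percentile; exceptions are marked. Work was done in Python 3.11.15 with pandas 2.3.3, numpy 2.4.6 and matplotlib 3.10.9, and the joining of peaks was tested on simulated lists. Cited1 and Amelx, which are not autosomal, were not analysed here.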

Additional observations from a re-analysis of the deposited data

How the results depend on the processing

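No paired analysis was possible because the counts come from no test and the lists hold no read counts. Of 51 region counts under other settings than leaving out a library, 26 stayed within 1.5 times the full-list count; the causes of the others were not tested, except that shorter lists hold fewer regions. In the order ectoderm without Sox2-positive cells, Sox2-positive cells without ectoderm, Sox2-positive cells without incisor, incisor without Sox2-positive cells, incisor without molars and all 7 libraries, the full lists gave 20, 1, 0, 6, 2 and 11. The molar count without incisor, 7, stayed at 6 to 9. They became 9, 3, 5, 1, 1 and 6 with 38000 peaks by p-value. With 38000 by signal they were 13, 2, 3, 0, 2 and 7. Keeping 50% of each list gave 11, 0, 0, 3, 1 and 5, requiring 50% of a region to be covered gave 22, 1, 1, 6, 4 and 5, and 200 bp windows around summits gave 20, 3, 0, 8, 3 and 9. A flank of 50 kb gave 18, 0, 0, 3, 0 and 9, and taking regions whose nearest gene is a member gave 28, 0, 0, 3, 2 and 9. Leaving out each replicated library in turn gave 21 to 46, 1 to 4, 0 to 2 and 6 to 8 for the first 4 of these and 11 to 12 for all libraries. Ectoderm-only regions outnumbered Sox2-positive-only regions under all of these. The direction was the same over all autosomal regions, with 22966 against 7591 in the full lists and 12074 against 9283 with 38000 by p-value. In these settings the direction was therefore not particular to the AP-2 loci. Shares over all regions are not given for the other settings. The count of regions with a higher percentile in ectoderm was 3 with gaps of 10 or 30 points, both tried after the data were seen, and 3 to 6 when a library was left out. Start-site calls, with either gene end standing in at Tfap2c, kept their value in 31 of 35 cases with 38000 peaks per library and in 28 of 35 at 2.5 kb.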

Other observations

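Few genes had the pattern of Tfap2b: peaks within 100 kb in the ectoderm replicates and the 2 molars, but not in sorted cells or incisor. There were 190 such genes, 0.919% of 20665, and 75 with 38000 peaks per library, or 0.363%. Ordered by the lower of the ectoderm counts, a ranking chosen after the values were seen, Tfap2d came first with 8, and Tfap2b and Vgll2 were tied at 6. Vgll2, a cofactor of TEAD factors, had 7 and 6 peaks in the ectoderm replicates, 2 in lower molar and 1 in upper molar. Next was Fstl5 with 6 and 5 in ectoderm, 1 in lower molar and 2 in upper molar. Gpr12 had 8 and 5 in ectoderm, 1 in lower molar and 2 in upper molar. Sim1, a transcription factor of the bHLH-PAS class, had 11 and 5 in ectoderm and 1 in each molar. Tfap2b and Tfap2d share their window, so they count as 1 locus here.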
